A study of Mus musculus with 6 samples.

Results

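Hepatic transcripts of the activin system were compared between sham-operated mice and mice that had undergone VSG (vertical sleeve gastrectomy), bariatric surgery in which much of the stomach is cut away. The members were 10 protein-coding genes chosen by name out of the 55385 genes of the count table. They comprise 4 genes for activin and inhibin β subunits (Inhba, Inhbb, Inhbc and Inhbe), 3 genes of the follistatin group (Fst, Fstl1 and Fstl3) and 3 activin receptor genes (Acvr2a, Acvr2b and Acvr1b). All 10 were found and all 10 passed the filter on low counts.

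Poly(A)-selected RNA of whole liver was sequenced from male mice, with 3 libraries (replicates 1 to 3) in the sham group and 3 (replicates 4 to 6) in the VSG group. The mice of both groups were 6 to 8 weeks old when they were put on a high-fat diet (HFD), had 10 weeks of HFD before surgery and stayed on HFD for a further 12 weeks after it. The study's methods name wild-type C57BL/6 animals and give 3 mice per group. There was no lean or unoperated group among these libraries, so each value after VSG is read against sham-operated mice on the same diet.

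Activins are dimers of inhibin β subunits that are secreted and signal through a complex of type II and type I serine/threonine kinase receptors, which phosphorylate the transcription factors Smad2 and Smad3. Follistatin, the product of Fst, binds activins in the extracellular space and keeps them from their receptors. In the liver, activin A (a dimer of the Inhba product) is known as a brake on hepatocyte growth, and Inhbc and Inhbe are genes expressed mainly by hepatocytes.

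The sequence just upstream of the start site is shown for Inhba and Acvr2b, which rose after VSG, and for Inhbc, which by the deposited gene lengths had the highest level of the 10. The windows searched hold the 250 bases before the RefSeq start (GRCm38.p6), each written in the direction of its gene, and only bases outside the gene model used for the counts are printed. For Acvr2b the last 60 bases of the window lie inside that model, which leaves 190. The window of Inhbe (chr10:127351849-127352098, minus strand) lies whole within the first annotated exon of the counted gene and is not printed. Capitals mark matches on either strand to 8 of the 9 motifs searched, the Sp1 box (GGGCGG), the TATA box (TATAAA), the cAMP response element half-site (TGACGT), the C/EBP-ATF composite site (TGATGNAA), the STAT site (TTCNNNGAA), the C/EBP site (TTGCNNAA), the E-box (CACGTG) and the HNF1 half-site (GTTAAT). The Smad half-site (CAGAC), found in 42.2% of all 32851 windows of this length, was searched but left in lower case. No promoter entry was found for Fst.
Inhba, chr13:16011601-16011850, plus strand: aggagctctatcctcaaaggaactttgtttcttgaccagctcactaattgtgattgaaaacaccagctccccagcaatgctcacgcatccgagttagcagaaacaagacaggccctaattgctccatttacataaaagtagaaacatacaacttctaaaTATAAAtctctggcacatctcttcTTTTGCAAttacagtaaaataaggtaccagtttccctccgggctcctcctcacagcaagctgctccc
Acvr2b, chr9:119401928-119402117, plus strand: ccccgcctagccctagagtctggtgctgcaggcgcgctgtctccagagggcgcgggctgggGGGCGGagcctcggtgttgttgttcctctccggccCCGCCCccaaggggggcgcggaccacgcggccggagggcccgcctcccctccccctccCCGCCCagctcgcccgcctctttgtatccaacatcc
Inhbc, chr10:127370549-127370798, minus strand: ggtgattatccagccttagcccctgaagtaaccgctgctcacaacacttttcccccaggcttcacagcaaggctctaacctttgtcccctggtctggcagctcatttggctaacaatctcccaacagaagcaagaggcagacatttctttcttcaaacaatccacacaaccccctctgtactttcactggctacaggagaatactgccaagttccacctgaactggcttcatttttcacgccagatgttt

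The windows of Inhba and Acvr2b had little in common. Inhba had 3 CpG dinucleotides in its window, a TATA box and a C/EBP site, and no Sp1 box. The TATA box and the C/EBP site occurred in 12.4% and 9.56% of all windows. Acvr2b had 24 CpG dinucleotides, more than 88.0% of all windows, with 3 Sp1 boxes and no TATA box. Sp1 boxes were present in 6 of the 9 members with an entry, against 32.7% of all windows. The Smad half-site was found in Acvr2b and not in Inhba, and in 5 of the 9 members. Inhbe held the only C/EBP-ATF composite site among the 9 members in its window, which lies inside the counted gene, and that motif was present in 3.45% of all windows. Inhbc held none of the 8 capitalised motifs. These are matches of letters within 250 bases and show no binding.

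Of the 10 members, 3 rose after VSG, namely Inhba, Fst and Acvr2b, and none fell, at an adjusted p under 0.05 (edgeR quasi-likelihood test, adjusted over 14454 genes). At the same threshold 14.7% of all genes tested were called, 6.79% as higher and 7.87% as lower, which is the background for the 3 of 10. At an unadjusted p under 0.05, 4 members were higher and 0 were lower, and DESeq2 called the same number, 3, as higher and 0 as lower. In 4 members the ranges of the 2 groups were apart, against 39.7% of all genes. The median log2 fold change was 0.22 over the members and 0.03 over all genes. The members that rose come from each role in the system, a ligand subunit, an antagonist and a type II receptor. Because whole liver was sequenced, a change in the number of cells of a type and a change in RNA per cell cannot be told apart.

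All 3 calls depended on particular libraries. Without sham replicate 2 none of the 3 members passed (adjusted p 0.0601 for Inhba, 0.0569 for Fst and 0.0522 for Acvr2b). The same held without sham replicate 3 (0.0954, 0.0818 and 0.0893, in that order) and without VSG replicate 6 (0.0677, 0.0687 and 0.0711), while the log2 fold changes in these 3 fits stayed between 0.94 and 1.80. The number of calls over all genes fell in those fits as well, from 2118 to 797, 159 and 210.

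**Figure D1:**
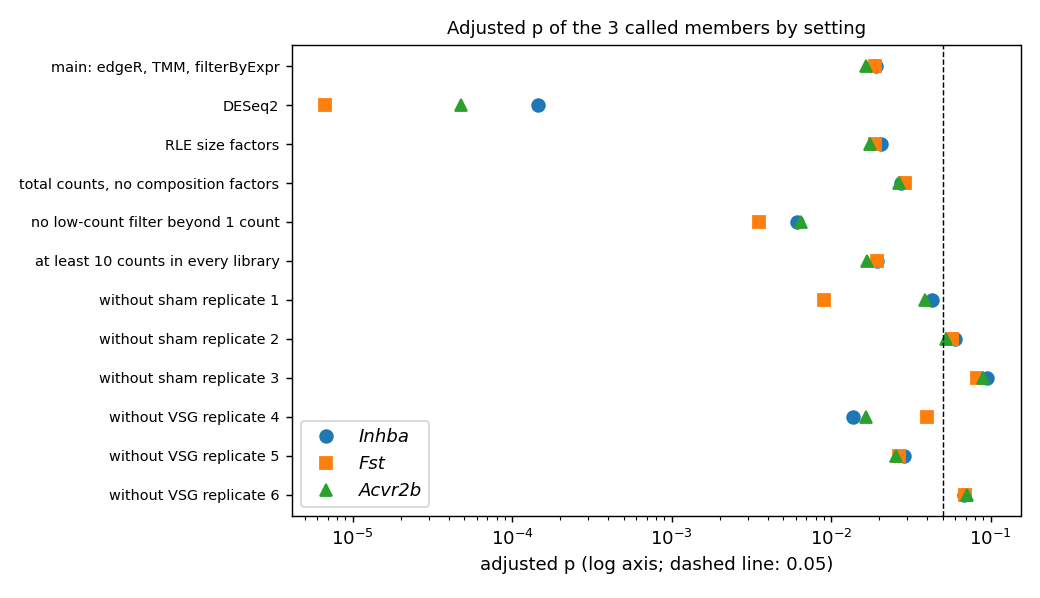
Adjusted p (x axis, log scale) of Inhba, Fst and Acvr2b under the edgeR test used in the text and under 11 alternatives (y axis), with a dashed line at 0.05. The 3 genes lie to the right of the line together in the fits that left out replicate 2 or 3 of the sham group or replicate 6 of the VSG group, and to its left in the other 9 settings.

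Inhba (ENSMUSG00000041324.14, chromosome 13, 16011851 to 16031621, plus strand, 5 exon blocks, GRCm38) encodes the subunit of activin A. Its level was 10.2, 8.95 and 8.74 CPM (counts per 1000000 counts of the library, with library sizes scaled by TMM factors) in sham replicates 1 to 3. It was 14.9, 20.6 and 24.7 CPM in VSG replicates 4 to 6. All 3 VSG libraries were above every sham library, and the VSG libraries were spread more widely. The mean went from 9.29 ± 0.785 to 20.1 ± 4.91 CPM (SD, n = 3), a 2.16-fold rise (log2 fold change 1.11, SE 0.195, 95% interval 0.65 to 1.57, adjusted p 0.0191 by edgeR).

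Inhbb (ENSMUSG00000037035.5, chromosome 1, 119415465 to 119422248, minus strand) encodes the subunit of activin B. It was at 4.25, 4.43 and 7.41 CPM in sham and at 2.49, 4.83 and 3.10 CPM in VSG libraries. The groups overlapped and no difference was detected (log2 fold change -0.63, 95% interval -1.41 to 0.16, edgeR adjusted p 0.228). The interval of Inhbb lies below that of Inhba, although the difference between the 2 genes' changes was not tested.

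Inhbc and Inhbe lie next to each other on the minus strand of chromosome 10, Inhbc (ENSMUSG00000025405.9) from 127356322 to 127370431 and Inhbe (ENSMUSG00000047492.5) from 127348857 to 127354411, with 1910 bases between them. They encode the βC and βE subunits. Inhbc was at 41.2, 68.7 and 54.7 CPM in sham and at 71.0, 82.6 and 74.7 CPM in VSG libraries. The groups did not overlap, but sham replicate 2 lay close to VSG replicate 4, and the change did not pass the threshold (log2 fold change 0.47, SE 0.186, 95% interval 0.03 to 0.92, unadjusted p 0.0400, edgeR adjusted p 0.129). An antisense gene, Gm47200, overlaps 268 bases of Inhbc exons and had from 6 to 15 counts per library. Inhbe was at 158, 73.0 and 158 CPM in sham and at 110.5, 121 and 96.9 CPM in VSG libraries. The 3 VSG libraries sat inside the range of the sham libraries, which was set by sham replicate 2 (log2 fold change -0.24, 95% interval -0.94 to 0.45, edgeR adjusted p 0.581). Without that library the log2 fold change was -0.53 with an adjusted p of 0.0779. Without sham replicate 1 it was -0.08 (adjusted p 0.879), and without sham replicate 3 it was also -0.08 (adjusted p 0.892).

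The 2 neighbours went opposite ways in sham replicate 2, which had the highest Inhbc and the lowest Inhbe level of its group. Per length, Inhbe over Inhbc was 1.34, 0.371 and 1.01 in sham livers against 0.544, 0.512 and 0.454 after VSG. The ratio was 0.907 ± 0.493 in sham and 0.503 ± 0.0457 in VSG livers (exact two-sided permutation test, p = 0.4, also after adjustment over the 3 ratios tested, where 0.1 is the smallest p that 3 against 3 allows). The VSG ratios were close together and lay between those of the sham libraries. These ratios rest on the deposited Inhbe length of 5319 bases. With the RefSeq span of 2447 bases they were 1.97 ± 1.07 in sham and 1.09 ± 0.0993 in VSG livers.

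**Figure D2:**
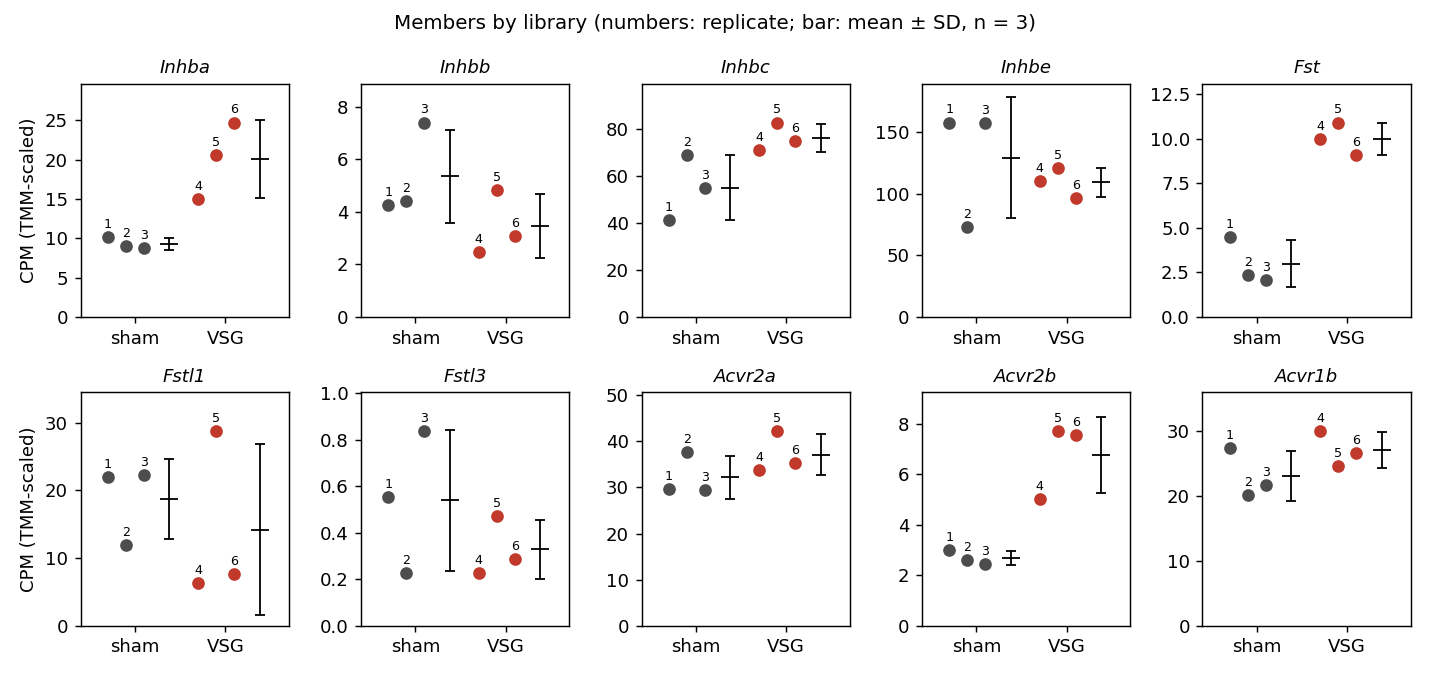
Level of each member in CPM (y axis, TMM-scaled, from 0) in the sham (grey) and VSG (red) libraries, each point 1 library with its replicate number and the bar beside it the mean ± SD (n = 3). In Inhba, Fst and Acvr2b the VSG points lie clear of the sham points, and in Fstl1 replicate 5 stands apart from the other VSG libraries at 28.7 CPM.

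Fst (ENSMUSG00000021765.9, chromosome 13, 114452290 to 114458951, minus strand, 3 exon blocks) encodes follistatin, the secreted activin antagonist. It had the largest change of the 10 members. Its level was 4.51, 2.38 and 2.09 CPM in sham and 9.95, 10.9 and 9.06 CPM in VSG libraries. The VSG libraries agreed closely with each other, and sham replicate 1 was higher than the other sham libraries. The mean went from 2.99 ± 1.32 to 9.97 ± 0.919 CPM, a 3.32-fold rise (log2 fold change 1.73, SE 0.303, 95% interval 1.01 to 2.45, edgeR adjusted p 0.0189). Without sham replicate 1 the log2 fold change was 2.15. The ratio of Fst to Inhba per length was 0.616, 0.369 and 0.333 in sham and 0.928, 0.737 and 0.511 in VSG libraries, so the groups overlapped (exact two-sided permutation test, p = 0.2, adjusted 0.3). An antisense gene, Gm47040, overlaps 115 bases of Fst exons and had at most 2 counts in any library.

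Fstl1 (ENSMUSG00000022816.11, chromosome 16, 37776873 to 37836514, plus strand) encodes a secreted glycoprotein of mesenchymal cells that shares the follistatin domain but is a weak activin binder. It was at 21.9, 11.9 and 22.3 CPM in sham and at 6.24, 28.7 and 7.63 CPM in VSG libraries. The VSG group held both the highest and the lowest library of all 6, and no difference was detected (log2 fold change -0.40, SE 0.593, 95% interval -1.81 to 1.01, edgeR adjusted p 0.662). This outcome rested on VSG replicate 5. Without it the log2 fold change was -1.46 and the gene passed as lower after VSG (adjusted p 0.0292), and without VSG replicate 4 or 6 it was -0.04 or -0.10. The summed level of 8 stellate cell and fibroblast markers followed the same order of libraries within each group, at 880.5, 610 and 924 CPM in sham and at 297, 572 and 344 CPM in VSG livers. Of these 8 markers, 1 (Reln, adjusted p 0.0328 by edgeR) passed as lower and 0 as higher (0 lower without sham replicate 1, 2 or 3 or VSG replicate 6), while 7 were lower and 0 higher at an unadjusted p under 0.05 and 5 were lower and 0 higher by DESeq2. Their median log2 fold change was -0.96. Whether they have a part in the Fstl1 levels was not tested.

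Fstl3 (ENSMUSG00000020325.10, chromosome 10, 79777272 to 79782630, plus strand), a follistatin-like activin antagonist, had the fewest counts of the members. Its counts were 15, 5 and 22 in the sham group and 5, 11 and 6 after VSG, where 3 counts were taken as the floor of a library. The groups overlapped (log2 fold change -0.72, 95% interval -2.01 to 0.57, edgeR adjusted p 0.378). On the opposite strand 1157 bases of its exons overlap Prss57, which encodes a neutrophil serine protease and whose counts were 1, 0 and 0 in the sham group against 55, 3 and 26 after VSG. Fstl3 counts did not follow those of Prss57.

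Acvr2b (ENSMUSG00000061393.14, chromosome 9, 119402118 to 119434995, plus strand, 9 exon blocks) and Acvr2a (ENSMUSG00000052155.5, chromosome 2, 48814109 to 48903269, plus strand) encode the 2 type II receptors that bind activins. Acvr2b was at 2.99, 2.604 and 2.43 CPM in sham and at 5.02, 7.69 and 7.54 CPM in VSG libraries. Each VSG library was above each sham library, with VSG replicate 4 the nearest to them. The mean went from 2.68 ± 0.287 to 6.75 ± 1.499 CPM, a 2.52-fold rise (log2 fold change 1.33, SE 0.220, 95% interval 0.81 to 1.86, edgeR adjusted p 0.0165).

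Acvr2a, the more abundant of the pair, was at 29.7, 37.6 and 29.4 CPM in sham and at 33.8, 42.2 and 35.2 CPM in VSG libraries. The groups overlapped, and the interval of its log2 fold change, -0.13 to 0.54, left out changes as large as that of Acvr2b (estimate 0.20, edgeR adjusted p 0.343). The ratio of Acvr2a to Acvr2b per length was 6.86, 9.99 and 8.37 in sham and 4.66, 3.79 and 3.23 in VSG libraries. It lay in each VSG library below the lowest sham library. Its mean went from 8.40 ± 1.57 to 3.89 ± 0.720 (exact two-sided permutation test, p = 0.1, the smallest the design allows, and 0.3 adjusted over the 3 ratios tested). The ratio rests on the Acvr2b values already called above, so it adds no separate evidence. Exons of Acvr2a overlap 446 bases of Orc4 on the other strand, and Orc4 had from 446 to 604 counts per library against 738 to 987 for Acvr2a.

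Acvr1b (ENSMUSG00000000532.11, chromosome 15, 101174067 to 101213684, plus strand), the type I receptor also known as ALK4, was at 27.4, 20.1 and 21.7 CPM in sham and at 30.0, 24.6 and 26.7 CPM in VSG libraries. Sham replicate 1 lay among the VSG libraries, and no difference was detected (log2 fold change 0.23, 95% interval -0.12 to 0.58, edgeR adjusted p 0.303). Among the 3 receptors, the change that passed was thus in the least abundant.

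**Figure D3:**
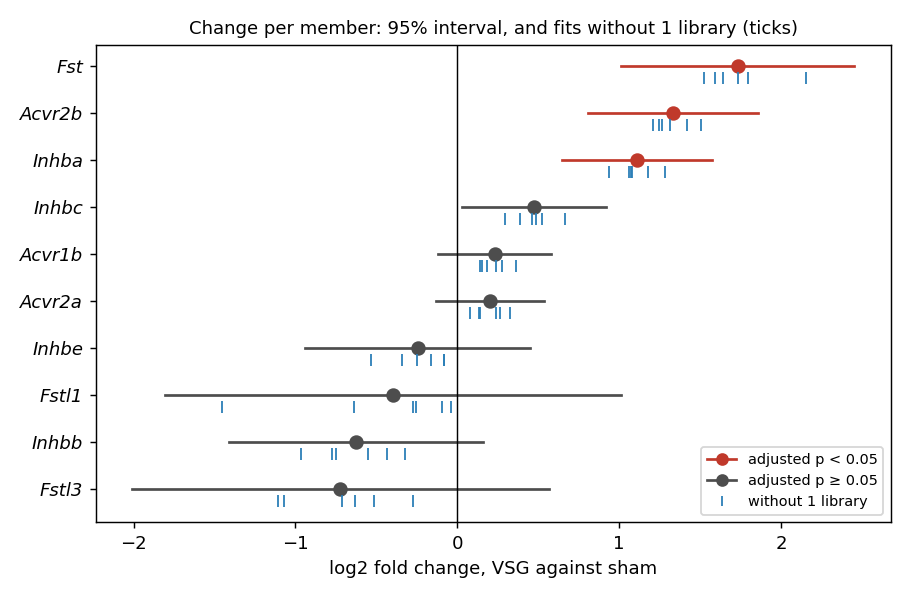
Log2 fold change of each member, VSG against sham (x axis), as the point estimate with its 95% interval, in red where the adjusted p was under 0.05. Blue ticks are the estimates from the 6 fits that each left out 1 library, and the tick of Fstl1 at -1.46 is the fit without VSG replicate 5.

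Levels of different genes were compared per length, as FPKM (CPM per kilobase of exon). In sham livers the highest were Inhbc at 29.5 ± 7.41 and Inhbe at 24.4 ± 9.21 FPKM, followed by Acvr2a at 5.67 ± 0.820, Acvr1b at 5.22 ± 0.865 and Fstl1 at 3.81 ± 1.198 FPKM. Inhba was at 1.45 ± 0.123, Inhbb at 1.26 ± 0.417, Acvr2b at 0.681 ± 0.0730, Fst at 0.652 ± 0.288 and Fstl3 at 0.221 ± 0.124 FPKM. Inhbc and Inhbe overlapped between libraries, as did Acvr2a and Acvr1b, Inhba and Inhbb, and Acvr2b and Fst, so these neighbours in the order were not separated.

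After VSG the lower part of that order was rearranged. Inhba, at 3.14 ± 0.768 FPKM, and Fst, at 2.17 ± 0.200 FPKM, overlapped Fstl1 (2.89 ± 2.56 FPKM) between libraries. Acvr2b, at 1.72 ± 0.382 FPKM, was above Inhbb, at 0.816 ± 0.285 FPKM, in all libraries of the group. Inhbc was at 40.9 ± 3.19 and Inhbe at 20.6 ± 2.26 FPKM without overlap. Of the summed FPKM of the 4 subunits, Inhba made up from 2.20% to 2.93% in sham and from 3.78% to 6.14% in VSG libraries (from 1.41% to 2.02% and from 2.71% to 4.58% with the RefSeq span as the length of Inhbe), while Inhbc and Inhbe together made up the bulk in every library.

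The order of Inhbc and Inhbe, like their ratio and the shares above, depends on the gene model. The deposited length of Inhbe was 5319 bases, whereas the RefSeq gene spans 2447 bases of genome (127349402 to 127351848). With that span as length Inhbe was at 52.9 ± 20.02 FPKM in sham and 44.7 ± 4.91 FPKM in VSG livers, and it was above Inhbc in 2 of 3 VSG libraries in place of 0.

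**Figure D4:**
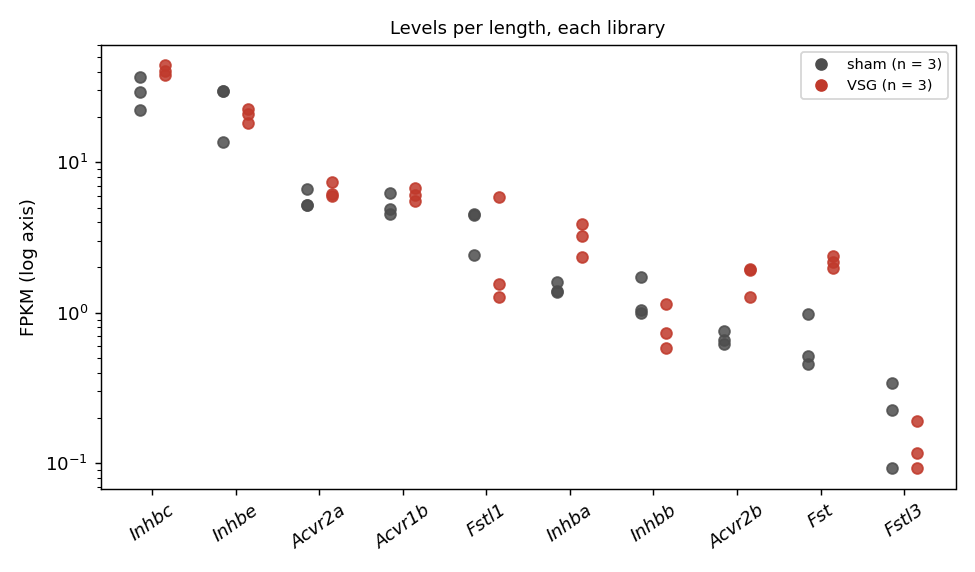
FPKM (y axis, log scale) of the 10 members in each sham (grey) and VSG (red) library, ordered by the sham mean. The 2 subunit genes Inhbc and Inhbe lie at or above 13.7 FPKM in every library, while the VSG points of Inhba, Fst and Acvr2b lie above their sham points.

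The genes with the profile most like a called member were sought over the 6 libraries, by the root mean square distance between centred log2 CPM values, among 9964 genes with a mean of at least 5 CPM. The nearest gene to both Inhba and Acvr2b was Hc, which encodes complement component C5, at distances of 0.0799 and 0.0800. Chsy3 (0.115) and S1pr5 (0.131) came next for Inhba, and Pdia5 (0.0918) and Inhba itself (0.105) for Acvr2b. Inhba and Acvr2b were both lowest of the VSG libraries in replicate 4. For Fst the nearest were Slc3a1 (0.105), an amino acid transporter subunit, Gm8893 (0.149) and Atoh8 (0.187), a transcription factor known as a target of BMP signalling. The points share their libraries and depth, and the distances are a description with no test.

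Other genes of the TGF-β superfamily were compared to place the members in their pathway. Of 86 such genes in 6 lists, 61 were tested, and 6 rose and 7 fell (21.3% called, against 14.7% of all genes). The lists were chosen with earlier results of these data known, so the 2 shares are no test of an excess. Over all genes 6.79% were called as higher and 7.87% as lower. That is the background for the count of each list below, and the lists are small. Their median log2 fold change was 0.06. The count rested on single libraries. It was 7, 4 and 0 without sham replicates 1, 2 and 3, and 8, 16 and 1 without VSG replicates 4, 5 and 6. Of these 13 genes and the 2 of the stress response named below, 15 in all, 9, 10 and 15 lost the call without sham replicates 1, 2 and 3, and 7, 2 and 13 without VSG replicates 4, 5 and 6. Atoh8 and Asns kept it in all of these fits but the one without sham replicate 3. Beside the called genes, Inha, Acvr1c, Smad2, Smad3, Smad4, Ctgf, Pmepa1 and Bambi are given below, chosen after their values were seen.

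Among other ligands, 4 of 16 tested fell and 0 rose (edgeR, with 0 higher at an unadjusted p under 0.05 and 0 by DESeq2), with a median log2 fold change of -0.75. Gdf2, which encodes BMP9, a ligand made by the liver, was at 24.6, 27.6 and 27.4 CPM in sham and at 10.6, 18.4 and 13.5 CPM in VSG libraries (log2 fold change -0.90, adjusted p 0.0321). Bmp5 fell from 21.3 ± 2.11 to 10.3 ± 3.11 CPM (-1.05, adjusted p 0.0301) and Gdf6 from 2.42 ± 0.482 to 0.636 ± 0.160 CPM (-1.93, adjusted p 0.0149). Gdf15, a stress-induced member of the family, went from 15.6 ± 8.25 to 5.004 ± 2.03 CPM (-1.64, adjusted p 0.0498). It lost the call in each of the 6 fits that left out 1 library. It also lost the call with at least 10 counts required in every library (edgeR adjusted p 0.0503). The stellate cell and fibroblast markers, whose sums are given beside Fstl1, were lower in the same livers, and over the VSG libraries Gdf2 and Bmp5 (7.19, 13.4 and 10.4 CPM) had the order of those sums, while Gdf6 and Gdf15 did not. Over the sham libraries it was the reverse for 3 of them, since Gdf2 and Bmp5 (19.7, 23.7 and 20.6 CPM) were highest in replicate 2, where the sum was lowest, and Gdf6 (2.62, 1.87 and 2.77 CPM) had the order of the sums. The part of these markers in the ligand levels was not tested. The inhibin α subunit gene Inha, which makes inhibins with the β subunits, was at or under 0.259 CPM in all libraries and was not tested.

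Of the other receptors and co-receptors, 2 of 12 tested fell and 0 rose (0 higher at an unadjusted p under 0.05 and by DESeq2). Of all genes tested, 7.87% were called as lower. Tgfbr2, the type II receptor for TGF-β, was at 75.3, 59.7 and 86.1 CPM in sham and at 49.2, 38.04 and 38.5 CPM in VSG libraries (log2 fold change -0.81, adjusted p 0.0276 by edgeR). Hjv, the BMP co-receptor hemojuvelin (listed as Hfe2), fell from 105 ± 6.42 to 70.3 ± 11.2 CPM (-0.58, adjusted p 0.0357). Acvr1c, the type I receptor ALK7 that is known to receive activin E signals, was at or under 0.332 CPM in every library and was not tested. Of the other antagonists 1 of 5 tested rose, the BMP antagonist Chrd, from 4.03 ± 0.113 to 8.17 ± 1.34 CPM (1.02, adjusted p 0.0160).

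Within the cell, 3 of 16 tested Smad genes and regulators rose and 0 fell (2 lower at an unadjusted p under 0.05, and 1 by DESeq2). These were Smad1 (log2 fold change 0.57, adjusted p 0.0229), Smad5 (0.36, adjusted p 0.0480) and the Smad corepressor Skil (0.86, adjusted p 0.0468), and all 3 lost the call when libraries were scaled by total counts. Smad5 also lost it in each of the 6 fits that left out 1 library and without the low-count filter. Smad1 and Smad5 belong to the BMP branch. In the activin branch, Smad2 (-0.18, 95% interval -0.38 to 0.02, adjusted p 0.191) and Smad3 (0.08, interval -0.37 to 0.53, adjusted p 0.787) did not pass, nor did the shared Smad4 (0.19, interval -0.02 to 0.40, adjusted p 0.181). Smad activity, which is set by phosphorylation, was not measured.

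Of 12 genes known to respond to Smads, 3 rose (Skil, Hamp and Atoh8) and 0 fell (1 lower at an unadjusted p under 0.05, and 0 by DESeq2). The median log2 fold change was 0.84. Ctgf (-0.72, edgeR adjusted p 0.106), Pmepa1 (-0.64, adjusted p 0.194) and Bambi (-0.16, adjusted p 0.598) had negative estimates and did not pass. The other genes of the list had positive estimates. Hamp encodes hepcidin, the iron hormone, and is induced both by BMP and activin B signals and by inflammation. It was at 128, 57.2 and 34.6 CPM in sham and at 575, 675 and 225 CPM in VSG libraries (log2 fold change 2.74, SE 0.600, adjusted p 0.0313 by edgeR), and reads could be shared with its near-identical copy Hamp2. Without sham replicate 1 the log2 fold change of Hamp was 3.41. Atoh8 rose from 6.61 ± 1.91 to 20.6 ± 3.45 CPM (1.64, adjusted p 0.0121).

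Of 4 proprotein convertases, the proteases that cleave precursors of this family, 1 was called, Pcsk6 (PACE4), which fell from 202 ± 29.4 to 94.2 ± 29.0 CPM (-1.10, adjusted p 0.0313). In the integrated stress response, which is known to induce Inhbe, 2 of 10 genes rose and 0 fell (1 lower at an unadjusted p under 0.05, and 1 by DESeq2). Atf4 rose from 61.2 ± 4.01 to 87.8 ± 14.0 CPM (log2 fold change 0.52, adjusted p 0.0463). Atf4 lost the call with total counts (0.38, adjusted p 0.177), without the low-count filter (adjusted p 0.0597) and in each fit that left out 1 library except that without VSG replicate 5. Asns, the asparagine synthetase gene, rose from 1.69 ± 1.68 to 49.8 ± 14.3 CPM (4.85, adjusted p 0.0101), and without sham replicate 1, the highest of its group at 3.62 CPM, its log2 fold change was 6.09. Inhbe, whose values are given above, did not pass.

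**Figure D5:**
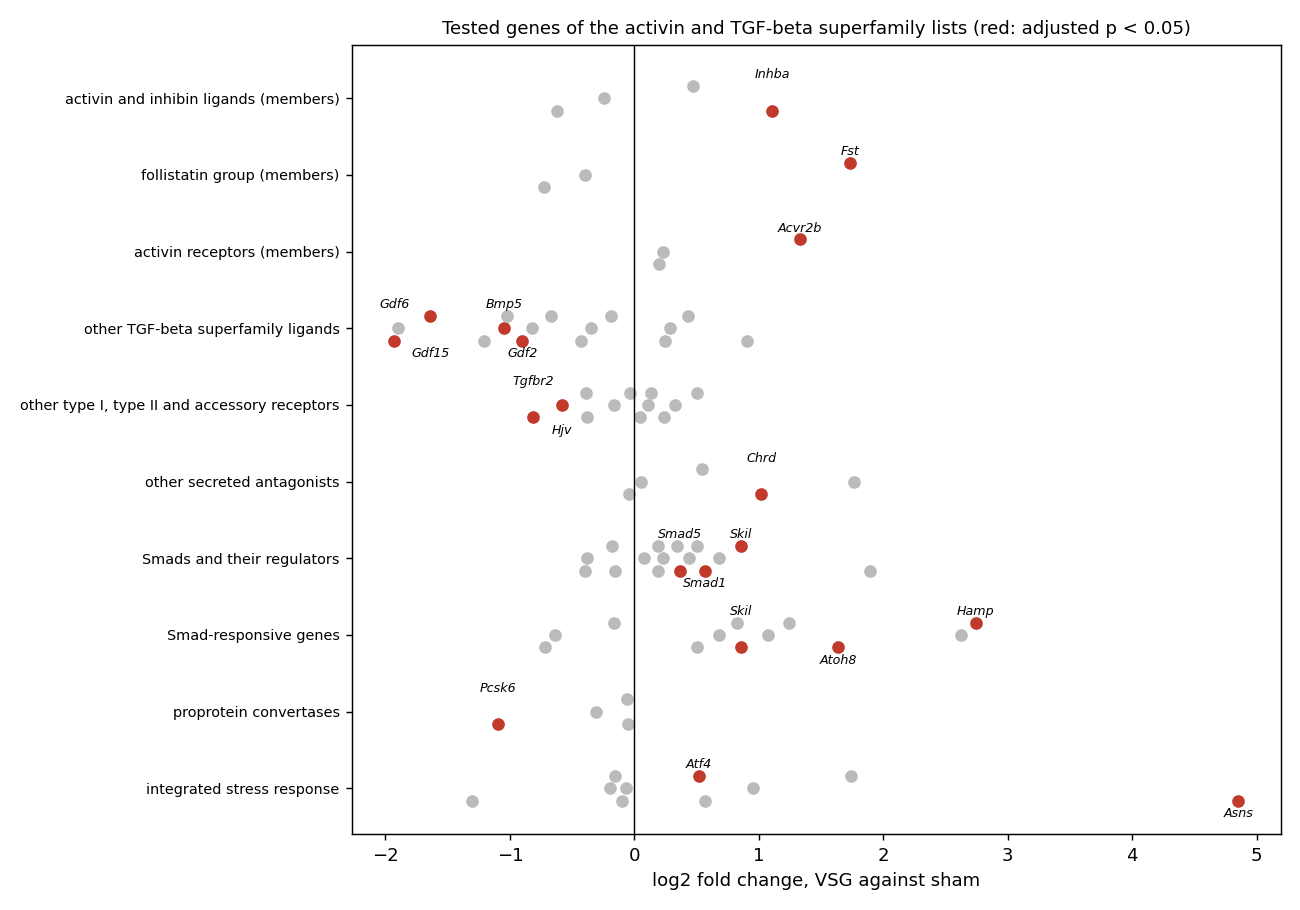
Log2 fold change, VSG against sham (x axis), of every tested gene of the members' 3 lists and of 7 other lists (y axis), in red and named where the adjusted p was under 0.05. Red points lie right of 0 in the members' lists and among other antagonists, Smads, Smad-responsive genes and stress response genes. They lie left of 0 among other ligands, other receptors and convertases, the last with 1 red point.

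Markers of other liver cells moved in the same comparison. All 8 neutrophil markers rose, with a summed level from 2.38 to 14.0 CPM in sham and of 1752, 127 and 789 CPM in VSG replicates 4 to 6. The neutrophil sum and Inhba, which myeloid cells can express, were both higher in each VSG library than in each sham library. Within the VSG group, Inhba was lowest in replicate 4, where the neutrophil sum was highest. Kupffer cell and macrophage markers rose in 4 of 7, with sums from 275 to 605 CPM in sham and from 616 to 1878 CPM in VSG livers. All 15 acute phase genes, which hepatocytes make in inflammation, rose, with sums from 19639 to 21720 CPM in sham and from 68844 to 142945 CPM in VSG livers. Without sham replicate 3 none of the 15 acute phase, 8 neutrophil and 4 Kupffer cell and macrophage calls was left. Without sham replicate 2 the same held for the neutrophil and the Kupffer cell and macrophage calls, and 8 acute phase calls were left. Without VSG replicate 6, 4 acute phase calls and none of the neutrophil or Kupffer cell and macrophage calls were left. Without sham replicate 1, 9 acute phase and 6 neutrophil calls were left. Without VSG replicate 4, 13 acute phase and 2 Kupffer cell and macrophage calls were left. The part of these cells and of the acute phase in the rise of Inhba, Fst and Acvr2b was not tested.

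Of the hepatocyte (7 genes), endothelial (6 genes) and T and NK cell (4 tested) markers 0 were called by edgeR (1, 0 and 0 at an unadjusted p under 0.05, and the same numbers by DESeq2). The hepatocyte markers summed to between 46104 and 98903 CPM in every library. In the bile duct list Sox9 rose, 1 of 5 genes, though not without sham replicate 1, 2 or 3 or VSG replicate 6, while the median log2 fold change of the list was -0.76, with sums from 57.7 to 253 CPM in sham and from 73.4 to 200 CPM in VSG livers. In the B and plasma cell list Jchain rose, 1 of 4 genes, with sums from 4.48 to 5.35 CPM in sham and from 25.3 to 28.6 CPM in VSG livers. Endothelial markers summed to between 271 and 352 CPM over all libraries.

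Library depth was similar, from 22804397 to 24191778 total counts. Over all genes 2118 were called, 981 higher and 1137 lower after VSG. With total counts in place of TMM factors the median log2 fold change of all genes moved from 0.03 to -0.11, and 486 were higher and 1512 lower. Relative to that shift, the 3 called members kept their direction and call (log2 fold change 0.96 for Inhba, 1.57 for Fst and 1.19 for Acvr2b).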

How the data were processed

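Poly(A) RNA of 3 sham and 3 VSG livers was measured by strand-specific RNA-seq. The authors deposited unnormalised gene counts, made, per the labels and methods, with STAR 2.6.0 (mm10) and featureCounts, and used DESeq2 for their own tests. The annotation release, strand option and handling of multi-mapping reads are not given in the sources used here, so overlapping and antisense genes are uncertain. The other deposited number used was the exon length of each gene, as the authors' count table lists it.

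Of 55385 identifiers, 55144 matched GENCODE M21 (GRCm38), and all 10 members matched with version. A filter on low counts (filterByExpr, minimum count 10 and total 15) left 14454 genes for edgeR 4.0.16 under R 4.3.3 (TMM factors, glmQLFit and glmQLFTest with group as the only term), with Benjamini-Hochberg adjustment over all of them. The script was tested on simulated data. SE is the log2 fold change divided by the square root of F. Counts of 3 or fewer per library were the floor, for counting error only. At most 2.69% of 50-base stretches of a member's transcripts occur in another gene's transcripts. Libraries of a group differed by more than counting noise (chi-square per degree of freedom of at least 25.2). Promoter windows came from the RefSeq table, with 9 of the 10 members present.

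The members and gene lists were chosen with earlier results of these data known. Named pathway genes were those of the lists, acute phase aside, with an adjusted p under 0.05. Alternatives were DESeq2 1.42.0, RLE factors, total counts, 2 other count filters and leaving out each library. The length of Inhbe, in its level, ratio and shares, was varied after seeing the data.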

Additional observations from a re-analysis of the deposited data

How the results depend on the processing

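Over 11 alternatives, the number of members called ranged from 0 to 4 against 3. It was 3 with DESeq2, RLE factors, total counts and both other filters. Leaving out 1 library gave from 0 to 4 members, with 0 when replicate 2 or 3 of the sham group or replicate 6 of the VSG group was left out and 4 without VSG replicate 5, where Fstl1 was added. All-gene calls rose from 2118 to 3252 with DESeq2 and lay between 159 and 2732 without 1 library. Of the 61 tested pathway genes 13 were called, against 20 with DESeq2 and from 0 to 16 without 1 library. No log2 fold change of the members or of the 15 named pathway genes changed sign. With the RefSeq span of Inhbe, and with total counts, 6 members again had at least 1 FPKM in both groups. No paired analysis was possible because the replicate numbers are not shared between groups. The cause of these changes was not tested. Fstl3 had 5 to 22 counts per library, and no test related the width of its interval to depth.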
